A study of Mus musculus with 10 samples.

Results

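The genes described here encode the Wnt ligands, their Frizzled receptors and co-receptors, the R-spondins with 2 of their Lgr receptors, the secreted Wnt antagonists and 3 nuclear or target genes of the pathway. They were chosen by symbol: any mouse gene named Wnt, Fzd, Sfrp, Dkk or Rspo with a number, together with Frzb, Wif1, Lrp5, Lrp6, Ror1, Ror2, Lgr4, Lgr5, Axin2, Tcf7 and Lef1. This gave 52 genes of 20738 named on the array, each with at least 1 array feature (63 features in all). Of the 52, 46 lay above the filter on dim features and were tested among 16650 genes. The 52 comprise 19 ligands, 10 Frizzled receptors, 4 co-receptors, 6 R-spondins and Lgr receptors, 10 secreted antagonists and 3 targets or nuclear factors.

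RNA of cultured mouse cells was hybridised to 10 single-colour Agilent arrays. Induced embryonic Sertoli-like cells (ieSCs) are fibroblasts converted with transgenes for Nr5a1, Wt1, Dmrt1, Gata4 and Sox9, factors of the Sertoli cells that nurse germ cells in the testis. Of the arrays, 4 held ieSCs from mouse embryonic fibroblasts (MEFs), 4 held ieSCs from female tail tip fibroblasts (TTFs), and 2 held MEFs labelled as carrying no transgene. All 3 groups share the congenic strain homozygous for R26-M2rtTA, the doxycycline-dependent activator placed in a ubiquitously active locus. All were grown in F12/DMEM, with 2 weeks given as the time without doxycycline or in culture. The ieSCs and MEFs need not share a doxycycline history. Unconverted TTFs were not analysed here, so the TTF-derived cells could be set only against MEFs and against the MEF-derived ieSCs. Each ieSC group has 2 names, 1 and 2, with 2 arrays per name, called here 1a, 1b, 2a and 2b, and the MEF arrays are called a and b. Lists of array values run in that order. Nothing in the labels ties arrays of a name to separate cultures, so the p-values rest on the spread among arrays and among names, which may be partly technical. The 2 MEF arrays share a name, so the spread among names comes from the ieSC groups alone.

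Wnt proteins are secreted lipid-modified ligands that bind Frizzled receptors. With Lrp5 or Lrp6 they stabilise beta-catenin, which acts with TCF/LEF proteins on target genes. With Ror1 or Ror2 they can signal without beta-catenin. R-spondins bind Lgr receptors and raise the amount of Frizzled at the cell surface by removing the ligases Rnf43 and Znrf3. Sfrp, Frzb and Wif1 proteins bind Wnt ligands outside the cell, and Dkk1 and Dkk2 bind the Lrp co-receptors. In the fetal gonad, Rspo1 and Wnt4 act on the ovarian side of sex determination, and Sox9 acts on the testis side.

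RefSeq (GRCm38.p6) windows of 300 bases around the start sites, 250 before and 50 after, were used for 35 of the 52 genes (42 windows). They were searched for CTTTGA, taken as the core of the TCF/LEF motif, and its reverse complement TCAAAG, and for no other form. A match lay in 7 of the 42 windows (16.7%) and in 5257 of 32851 windows of all genes (16.0%). The 7 windows belong to Dkk1, Frzb, Fzd1, Lef1, Ror1, Wnt11 and Wnt5b. The bases before the start of 4 members are shown 5′ to 3′ on the gene's strand, with matches in capitals, because these members differed between the groups in different ways: Axin2 was higher in ieSCs than in MEFs, Lef1 and Frzb were lower, and Sfrp2 had the largest fall of the 46. The Axin2 bases are at chr11:108920099-108920348, plus strand, the Lef1 bases at chr3:131156044-131156293, plus strand, the Frzb bases at chr2:80447397-80447646, minus strand and the Sfrp2 bases at chr3:83766071-83766320, plus strand.
Axin2: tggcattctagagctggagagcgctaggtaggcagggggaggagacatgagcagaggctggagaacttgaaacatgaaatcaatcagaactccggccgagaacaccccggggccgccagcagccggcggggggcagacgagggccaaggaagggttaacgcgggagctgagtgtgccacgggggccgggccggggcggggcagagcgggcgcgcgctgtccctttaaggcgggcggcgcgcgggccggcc
Lef1: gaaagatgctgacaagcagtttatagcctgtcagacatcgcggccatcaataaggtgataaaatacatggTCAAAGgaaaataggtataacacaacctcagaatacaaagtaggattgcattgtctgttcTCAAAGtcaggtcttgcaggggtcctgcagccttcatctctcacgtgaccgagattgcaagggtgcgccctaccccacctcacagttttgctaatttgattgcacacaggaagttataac
Frzb: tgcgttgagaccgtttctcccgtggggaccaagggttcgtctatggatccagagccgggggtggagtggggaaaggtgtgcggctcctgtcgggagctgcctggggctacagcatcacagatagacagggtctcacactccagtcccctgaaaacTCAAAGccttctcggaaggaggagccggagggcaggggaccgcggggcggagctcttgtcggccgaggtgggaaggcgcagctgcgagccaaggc
Sfrp2: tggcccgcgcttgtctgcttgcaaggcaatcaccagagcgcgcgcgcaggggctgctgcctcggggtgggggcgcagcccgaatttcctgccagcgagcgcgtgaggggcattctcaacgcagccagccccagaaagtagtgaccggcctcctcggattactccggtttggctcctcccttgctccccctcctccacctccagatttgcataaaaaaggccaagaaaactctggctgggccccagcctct
Of these 4 windows, Axin2 and Sfrp2 hold no match, Frzb holds 1, and the Lef1 window holds 2. Lef1 has 4 windows, and only the one shown, chosen for its matches, has any. It has 5 CpG dinucleotides and 43.7% G and C in its 300 bases, and the other Lef1 windows have 18, 21 and 8 CpG and 67.3%, 67.3% and 51.7% G and C. The whole windows of the other genes have 31 and 70.0% for Axin2, 22 and 66.0% for Sfrp2, and 20 and 64.7% for Frzb. A match is a run of letters and says nothing about binding.

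Levels are the deposited log2 intensities, in which a difference of 1 is 2-fold in intensity. The table has no detection flags. The 40th percentile of an array lay between 4.988 and 5.023, and a level under about 5.0 belongs to the dim end, where a difference is one of intensity and not a ratio of transcript amounts. Levels of different genes come from different probes and are not compared. Across all features, MEF arrays correlated with ieSC arrays at 0.926 to 0.9408, ieSCs of different origin at 0.9675 to 0.9754, and arrays of a shared name at 0.9896 to 0.9966. Of the transgene factors, Wt1 was higher in ieSCs than in MEFs by 5.60 ± 0.27 (limma adjusted p = 2.08e-07) while the other 4 were lower, with differences of -3.46 ± 0.17 for Sox9, -1.90 ± 0.32 for Gata4, -0.68 ± 0.13 for Nr5a1 and -0.51 ± 0.16 for Dmrt1 (adjusted p = 2.66e-07, 0.00087, 0.00209 and 0.0239). The Sertoli markers Amh and Fshr were below the filter, and of 13 tested Sertoli markers 7 were higher and 5 lower in ieSCs than in MEFs. Xist, expected in female cells with an inactive X chromosome, stood at 3.77 to 4.35 on the TTF-derived arrays labelled female and at 9.31 and 9.37 on the MEF arrays, where the Y-linked Eif2s3y stood at 10.29 and 10.33. The MEF-derived ieSC arrays were dim for Xist as well (3.41 to 4.6), and both ieSC groups were dim for Eif2s3y (3.16 to 4.01).

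Some markers of other cell types differed between the groups, and others did not. Of 12 fibroblast markers, 10 were lower and 0 higher in ieSCs (mean level over the list 15.647 and 15.66 on the MEF arrays, 9.011 to 9.297 on MEF-derived and 9.28 to 10.365 on TTF-derived arrays). All 10 macrophage markers were lower, from a list mean of 11.743 and 11.766 on the MEF arrays to 5.785 to 6.087 on the ieSC arrays. All 7 smooth muscle and 4 of 6 chondrocyte markers were lower as well, and 5 of 6 mesothelial markers were higher. Endothelial markers were higher in 2 and lower in 1 of 4 tested, keratinocyte markers higher in 3 of 6, and granulosa markers lower in 3 of 5. For these lists and the Sertoli list above, the shares over all 16650 genes were 25.9% higher and 23.6% lower (limma adjusted p under 0.05). Some markers, among them C1qa, Laptm5, Tyrobp, Twist1 and Fap, were under 5.0 on every ieSC array and passed the filter through the MEF arrays alone. Others, among them Sox8 and Krt1, passed through ieSC arrays alone. Such markers had to lie higher in the group they passed through. For this reason, and because the lists are short, the counts are a description. These are bulk samples, in which fewer cells of a type and less RNA per cell cannot be told apart. The part of these cell types in the Wnt results was not tested.

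Against MEFs, ieSCs had lower levels of 22 of the 46 tested Wnt genes (47.8%) and higher levels of 13 (28.3%), and 11 were not past the threshold. Over all 16650 genes, limma at an adjusted p under 0.05 called 23.6% lower and 25.9% higher. The median log2 difference over the members was -0.55, and 0.09 over all genes. With levels under 5.01 raised to that value the median of the members was -0.35. Rspo2, Rspo3, Dkk1, Dkk2 and Lef1, all among the 22, passed the filter through the 2 MEF arrays alone, and Dkk3 needed them, while Wnt7b and Axin2, among the 13, passed through ieSC arrays alone. Such members had to lie higher in the group they passed through, so the counts and medians over members and classes are a description. Of the 34 members above the filter level on at least 2 ieSC arrays and at least 1 MEF array, 16 were lower and 11 higher. The same count was not made over all genes, so it is a description as well. The falls lay mostly with secreted antagonists (6 of 9 tested lower, 1 higher), Frizzled receptors (6 of 10 lower, 3 higher) and co-receptors (4 of 4 lower), while ligands were lower in 2 and higher in 5 of 14. R-spondins and Lgr receptors were lower in 3 and higher in 2 of 6, and of the targets and nuclear factors 2 of 3 were higher. The median differences by class were 0.36 for ligands, -0.62 for Frizzled receptors, -1.08 for co-receptors and 2.68 for the 3 targets and nuclear factors. They were -3.94 for R-spondins and Lgr receptors and -3.99 for secreted antagonists. The R-spondin value falls in a gap between -8.16 (Lgr5) and 0.29 (Rspo4) and describes no member. With levels under 5.01 raised, the medians were -4.02 for the R-spondin class and -3.16 for secreted antagonists.

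**Figure D1:**
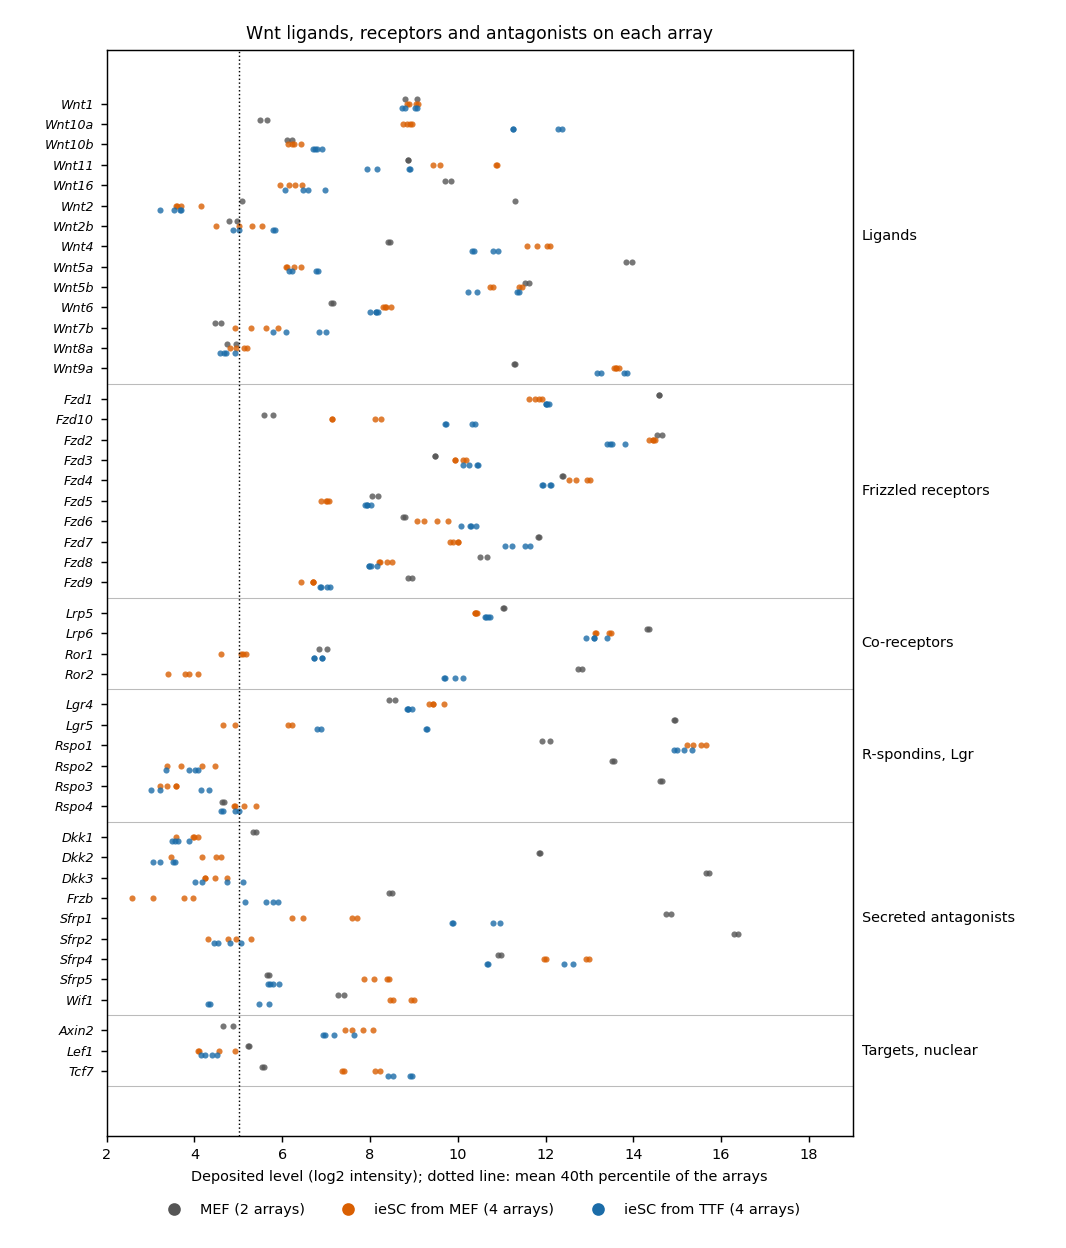
Deposited level (log2 intensity, x axis) of the 46 tested members on each of the 10 arrays, grouped by class, with MEF in grey, MEF-derived ieSC in orange and TTF-derived ieSC in blue, and the mean 40th percentile (5.01) as a dotted line. Sfrp2, Dkk3, Rspo2 and Rspo3 lie between 13.52 and 16.39 on the MEF arrays and between 3.003 and 5.29 on the ieSC arrays, whereas Rspo1, Wnt4, Wnt9a and Wnt10a are higher on every ieSC array than on both MEF arrays.

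Among the ligands, Wnt5a and Wnt16 were lower in ieSCs and Wnt10a, Wnt4, Wnt9a, Wnt6 and Wnt7b were higher. Wnt5a, which acts largely through Ror receptors without beta-catenin, had levels of 13.84 and 13.97 on the MEF arrays, 6.27, 6.11, 6.09 and 6.42 on the MEF-derived ieSC arrays, and 6.77, 6.82, 6.15 and 6.22 on the TTF-derived ieSC arrays. All 8 ieSC arrays were far below both MEF arrays, and the ieSC groups overlapped. It fell by 7.55 ± 0.23 (limma adjusted p = 1.79e-08). Wnt16, a ligand with roles in bone, had levels of 9.86 and 9.72 on the MEF arrays, 6.16, 5.95, 6.46 and 6.29 on the MEF-derived ieSC arrays, and 6.58, 6.97, 6.07 and 6.47 on the TTF-derived ieSC arrays. The MEF values again lay above all ieSC values. The difference was -3.42 ± 0.29 (adjusted p = 9.52e-06) on this feature and -6.27 ± 0.60 on a second feature, which reached 3.53 in MEF-derived ieSCs.

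Wnt10a, a ligand that acts through beta-catenin in skin and teeth, stood at 5.66 and 5.50 on the MEF arrays, 8.84, 8.76, 8.95 and 8.92 on the MEF-derived ieSC arrays, and 11.27, 11.27, 12.38 and 12.29 on the TTF-derived ieSC arrays. The 3 groups did not overlap, and both names of TTF-derived ieSCs were above both names of MEF-derived ieSCs. The ieSCs exceeded MEFs by 4.75 ± 0.30 (adjusted p = 1.35e-06), a ratio of intensities of 27. Wnt4, a ligand needed for development of the ovary and kidney, stood at 8.42 and 8.46 on the MEF arrays, 11.80, 11.58, 12.03 and 12.10 on the MEF-derived ieSC arrays, and 10.91, 10.79, 10.37 and 10.32 on the TTF-derived ieSC arrays. Here MEF-derived ieSCs were highest, TTF-derived ieSCs between and MEFs lowest, with no overlap, and the difference between ieSCs and MEFs was 2.80 ± 0.21 (adjusted p = 3.84e-06).

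Wnt9a, a ligand of joint formation, rose by 2.27 ± 0.19 (adjusted p = 7.9e-06), from a mean of 11.30 in MEFs to 13.60 (MEF-derived) and 13.52 (TTF-derived). Wnt6, a ligand of epithelia, rose by 1.12 ± 0.11 (adjusted p = 2.27e-05). Wnt7b, known from lung and kidney development, rose by 1.39 ± 0.39 (adjusted p = 0.0142) from a dim MEF level of 4.54. Its adjusted p was 0.104 with the arrays of a name averaged and 0.0625 with dim levels raised, where the difference was 0.93.

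Of the other ligands, Wnt2 had the widest gap between arrays of a group, at 11.31 and 5.09 on MEF arrays a and b and 3.58 to 4.15 and 3.22 to 3.69 on the MEF-derived and TTF-derived arrays. Every ieSC array was thus dim and below both MEF arrays, but the MEF arrays differed by 6.22. The difference of -4.56 ± 2.33 did not pass (adjusted p = 0.136). Without MEF array a it was -1.45 (adjusted p = 0.0072), and without MEF array b it was -7.67 (adjusted p = 8.79e-07). With the arrays of a name averaged, which leaves 1 MEF value and hides this gap, the adjusted p was 0.00101.

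Wnt5b, a close relative of Wnt5a, differed by -0.59 ± 0.34 and did not pass (adjusted p = 0.183), but without TTF-derived name 2 its difference was -0.85 (adjusted p = 0.0171). Wnt10b, known for restraining fat cell formation, was at 0.36 ± 0.16 (adjusted p = 0.0889). Its p was 0.0459 without MEF-derived array 2a, 0.0386 without MEF-derived name 2 and 0.00517 with the shared name ignored. Wnt11, a ligand of cell movements in the embryo, differed by 0.47 ± 0.44 (adjusted p = 0.413), and by 0.81 without MEF-derived name 2 (adjusted p = 0.0499). Wnt1, Wnt2b and Wnt8a gave 0.00 ± 0.19, 0.36 ± 0.37 and 0.03 ± 0.22, none past the threshold, and Wnt2b and Wnt8a were at or near the dim end in all groups. A further 5 ligands were too dim to test: Wnt3 ranged from 3.217 to 4.186 over the 10 arrays, Wnt3a from 3.031 to 4.154, Wnt7a from 4.312 to 5.183, Wnt8b from 3.962 to 5.638 over 2 features, and Wnt9b from 4.013 to 4.707.

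Of the Frizzled genes, Fzd1, Fzd8, Fzd9, Fzd7, Fzd5 and Fzd2 were lower in ieSCs, Fzd10, Fzd6 and Fzd3 were higher, and Fzd4 did not pass. Each encodes a receptor with 7 membrane spans. Fzd1 stood at 14.58 and 14.58 on the MEF arrays, 11.62, 11.77, 11.92 and 11.85 on the MEF-derived ieSC arrays, and 12.01, 12.01, 12.03 and 12.08 on the TTF-derived ieSC arrays. Both MEF values lay above every ieSC value, and the difference was -2.67 ± 0.11 (adjusted p = 1.1e-07). Fzd8 stood at 10.67 and 10.51 on the MEF arrays, 8.49, 8.39, 8.21 and 8.23 on the MEF-derived ieSC arrays, and 7.98, 8.01, 8.16 and 7.97 on the TTF-derived ieSC arrays, again with MEFs above all ieSCs (-2.41 ± 0.14, adjusted p = 8.63e-07). Fzd9 gave 8.86 and 8.95 on the MEF arrays, 6.70, 6.71, 6.44 and 6.70 on the MEF-derived ieSC arrays, and 6.89, 6.87, 7.10 and 7.01 on the TTF-derived ieSC arrays. It fell by 2.11 ± 0.15 (adjusted p = 2.37e-06), and MEF-derived array 2a was the lowest of its group.

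Fzd10 went the other way, with 5.58 and 5.79 on the MEF arrays, 7.14, 7.14, 8.26 and 8.13 on the MEF-derived ieSC arrays, and 9.74, 9.71, 10.31 and 10.39 on the TTF-derived ieSC arrays. MEFs were lowest, near the dim end, MEF-derived ieSCs between and TTF-derived ieSCs highest, with no overlap between the groups. The ieSCs were higher by 3.17 ± 0.34 (adjusted p = 5.06e-05). Fzd6, a receptor of planar cell polarity in hair follicles, and Fzd3, which guides axons, rose by 1.06 ± 0.23 and 0.70 ± 0.14 (adjusted p = 0.00377 and 0.00209, and 0.054 for Fzd3 with arrays of a name averaged).

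Fzd5, a receptor with roles in gut and eye, fell by 0.64 ± 0.12 (adjusted p = 0.00131). Fzd7 fell by 1.19 ± 0.16 on the feature used and differed by -0.29 ± 0.15 on its second feature, and the mean of both gave -0.74 (adjusted p = 0.00349). Fzd2 fell by 0.60 ± 0.16 (adjusted p = 0.0132), and the mean of its 2 features did not pass (-0.42, adjusted p = 0.0834). Fzd4, the receptor of the eye's blood vessels, differed by 0.02 ± 0.15 over both ieSC groups together, while its mean level was 12.39 for MEFs, 12.80 for MEF-derived and 12.02 for TTF-derived ieSCs.

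All 4 co-receptors were lower in ieSCs. Ror2, the receptor tyrosine kinase through which Wnt5a acts, stood at 12.84 and 12.75 on the MEF arrays, 3.41, 3.796, 3.88 and 4.08 on the MEF-derived ieSC arrays, and 10.13, 9.94, 9.69 and 9.71 on the TTF-derived ieSC arrays. MEF-derived ieSCs were dim on all 4 arrays, TTF-derived ieSCs were bright but below MEFs, and the 3 groups were far apart. The mean difference of the ieSC groups from MEFs, -5.96 ± 0.24 (adjusted p = 7.03e-08), averages -9.0 ± 0.26 for MEF-derived and -2.92 ± 0.26 for TTF-derived cells. Ror1, its close relative, stood at 6.84 and 7.02 on the MEF arrays, 5.06, 5.10, 5.17 and 4.597 on the MEF-derived ieSC arrays, and 6.72, 6.73, 6.90 and 6.90 on the TTF-derived ieSC arrays. Only the MEF-derived arrays were low, while the TTF-derived arrays overlapped with the MEF arrays. The mean difference was -1.04 ± 0.25 (adjusted p = 0.00644).

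Lrp6 and Lrp5 are the co-receptors of the beta-catenin branch. Lrp6 stood at 14.32 and 14.36 on the MEF arrays, 13.12, 13.14, 13.50 and 13.44 on the MEF-derived ieSC arrays, and 13.10, 12.93, 13.40 and 13.11 on the TTF-derived ieSC arrays, with every ieSC array below both MEF arrays and a difference of -1.12 ± 0.19 (adjusted p = 0.000807). Lrp5 had 11.04 and 11.06 on the MEF arrays, 10.41, 10.38, 10.40 and 10.44 on the MEF-derived ieSC arrays, and 10.70, 10.63, 10.73 and 10.65 on the TTF-derived ieSC arrays. Its MEF values were above all ieSC values, with a difference of -0.51 ± 0.09 (adjusted p = 0.00133).

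The R-spondins split. Rspo3, the R-spondin of blood vessels and placenta, stood at 14.65 and 14.60 on the MEF arrays, 3.58, 3.37, 3.58 and 3.22 on the MEF-derived ieSC arrays, and 4.32, 4.14, 3.003 and 3.22 on the TTF-derived ieSC arrays. All ieSC arrays were at the dim end, far below both MEF arrays. The difference of -11.07 ± 0.36 (adjusted p = 2.32e-08) is among the 3 largest of the 46 members. Rspo2, known from limb and lung, stood at 13.56 and 13.52 on the MEF arrays, 4.18, 4.47, 3.38 and 3.70 on the MEF-derived ieSC arrays, and 4.07, 3.87, 3.35 and 4.02 on the TTF-derived ieSC arrays and fell by 9.66 ± 0.39 (adjusted p = 7.32e-08), again to dim levels on all 8 ieSC arrays.

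Rspo1, the R-spondin required for ovarian development, rose. Its levels were 12.10 and 11.91 on the MEF arrays, 15.35, 15.21, 15.66 and 15.55 on the MEF-derived ieSC arrays, and 14.99, 14.92, 15.34 and 15.15 on the TTF-derived ieSC arrays, high in MEFs and higher on every ieSC array, a difference of 3.27 ± 0.18 (adjusted p = 6.16e-07) or a 9.62-fold intensity. Rspo4, the R-spondin of nail growth, stayed near the dim end in all groups (4.65, 5.09 and 4.80 in MEFs, MEF-derived and TTF-derived ieSCs) and did not pass (0.29 ± 0.25, adjusted p = 0.37).

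Of the R-spondin receptors, Lgr5, a marker of stem cells in gut and hair follicle, fell and Lgr4, the widely expressed receptor, rose. Lgr5 stood at 14.93 and 14.94 on the MEF arrays, 4.93, 4.66, 6.22 and 6.14 on the MEF-derived ieSC arrays, and 6.88, 6.79, 9.27 and 9.30 on the TTF-derived ieSC arrays. The difference from MEFs was -8.16 ± 0.75 (adjusted p = 1.53e-05), but the names within each ieSC group were unlike: name 2 was above name 1 in both groups, by 1.39 in MEF-derived and 2.45 in TTF-derived cells. Lgr4 rose by 0.68 ± 0.15 (adjusted p = 0.00451), from 8.50 in MEFs to 9.48 (MEF-derived) and 8.89 (TTF-derived).

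**Figure D2:**
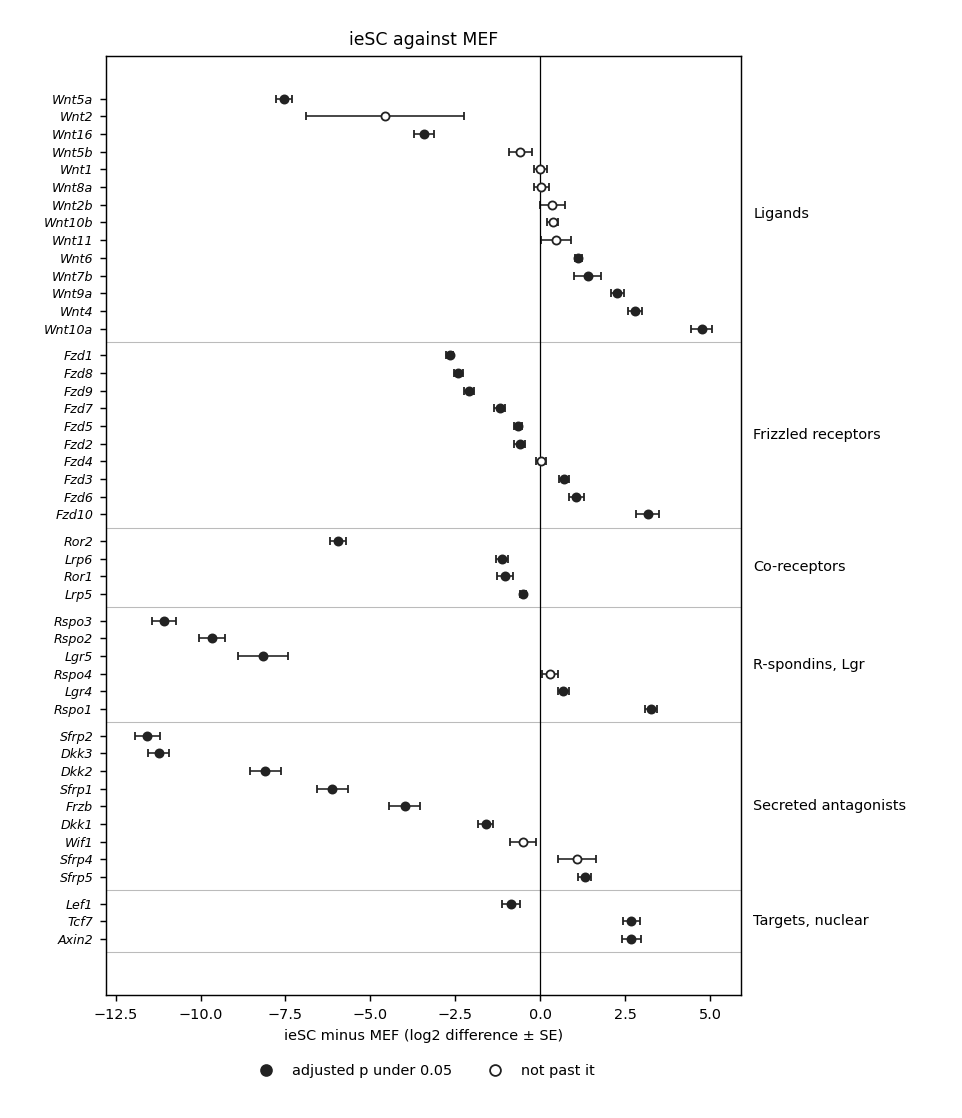
Log2 difference of the mean of both ieSC groups from MEF (x axis, ± SE from the limma fit to all 10 arrays) for each tested member by class, filled where the adjusted p was under 0.05. The differences run from -11.56 (Sfrp2) to 4.75 (Wnt10a), and the wide bar belongs to Wnt2, whose MEF arrays were at 11.31 and 5.09.

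Of the 9 tested secreted antagonists, 6 were lower in ieSCs and only Sfrp5 was higher. Sfrp2, a soluble Frizzled-like protein that binds Wnt ligands, stood at 16.39 and 16.29 on the MEF arrays, 4.77, 4.31, 5.29 and 4.95 on the MEF-derived ieSC arrays, and 4.82, 4.54, 5.07 and 4.45 on the TTF-derived ieSC arrays. It was bright on both MEF arrays and at or near the dim end on all ieSC arrays, a difference of -11.56 ± 0.38 (adjusted p = 2.38e-08). Dkk3, the divergent member of the Dickkopf family, stood at 15.72 and 15.66 on the MEF arrays, 4.74, 4.47, 4.23 and 4.24 on the MEF-derived ieSC arrays, and 4.74, 5.12, 4.18 and 4.02 on the TTF-derived ieSC arrays. The pattern was the same, with dim levels on ieSC arrays and a difference of -11.22 ± 0.31 (adjusted p = 8.62e-09).

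Dkk2, which binds Lrp5 and Lrp6, stood at 11.86 and 11.84 on the MEF arrays, 4.18, 4.599, 3.47 and 4.49 on the MEF-derived ieSC arrays, and 3.55, 3.51, 3.05 and 3.22 on the TTF-derived ieSC arrays. All ieSC arrays were dim and below the MEF arrays, and the difference was -8.09 ± 0.45 (adjusted p = 5.6e-07). Sfrp1, the close relative of Sfrp2, stood at 14.75 and 14.86 on the MEF arrays, 6.21, 6.47, 7.60 and 7.69 on the MEF-derived ieSC arrays, and 9.88, 9.89, 10.81 and 10.96 on the TTF-derived ieSC arrays. It was lower than in MEFs on all ieSC arrays (difference -6.12 ± 0.45, adjusted p = 3.64e-06), yet unlike Sfrp2 it stayed above the dim end, more so in TTF-derived cells.

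Frzb, also known as Sfrp3, fell by 3.99 ± 0.46 (adjusted p = 6.86e-05) from 8.47 in MEFs to 3.34 and 5.62. Dkk1, the best known inhibitor of Lrp5 and Lrp6, was already near the dim end in MEFs (5.41 and 5.34) and lower in ieSCs (3.58 to 4.08 and 3.49 to 3.87). Its difference of -1.61 ± 0.22 (adjusted p = 0.000234) became -0.37 with dim levels raised (adjusted p = 0.00113). Sfrp5, a relative expressed in gut and fat, rose by 1.31 ± 0.19 (adjusted p = 0.000354), which averages a rise in MEF-derived cells and no called difference in TTF-derived cells.

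Sfrp4 and Wif1 did not pass over both ieSC groups together. Sfrp4, a relative known from bone, differed by 1.09 ± 0.55 (adjusted p = 0.134), with 10.91 and 10.99 on the MEF arrays, 12.00, 11.97, 12.92 and 12.99 on MEF-derived and 12.62, 12.43, 10.67 and 10.70 on TTF-derived arrays. TTF-derived name 2 was slightly below the MEFs while name 1 was above them, and without name 2 the difference was 1.55 (adjusted p = 0.00482). Wif1 was higher than MEFs in one ieSC group and lower in the other. Its mean difference was -0.51 ± 0.37 (adjusted p = 0.296), and -0.82 without TTF-derived name 1 (adjusted p = 0.00553). Dkk4 was below the filter, at 3.506 to 4.967 over the 10 arrays.

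Of the 3 genes downstream, Axin2 and Tcf7 were higher in ieSCs. Axin2, a scaffold of the beta-catenin destruction complex and a widely used target gene of the pathway, stood at 4.66 and 4.89 on the MEF arrays, 7.60, 7.43, 8.08 and 7.84 on the MEF-derived ieSC arrays, and 6.97, 6.93, 7.64 and 7.19 on the TTF-derived ieSC arrays. The MEF arrays were at the dim end and every ieSC array well above it, a difference of 2.69 ± 0.29 (adjusted p = 4.38e-05). Its second feature gave 2.998 ± 0.27. Tcf7, which encodes the nuclear factor TCF1, stood at 5.58 and 5.53 on the MEF arrays, 7.41, 7.36, 8.10 and 8.22 on the MEF-derived ieSC arrays, and 8.52, 8.42, 8.95 and 8.91 on the TTF-derived ieSC arrays. The 3 groups did not overlap, and ieSCs exceeded MEFs by 2.68 ± 0.26 (adjusted p = 2.18e-05). Its second, dimmer feature gave 1.65 ± 0.38.

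Lef1, the other TCF/LEF factor of the rule, was dim throughout, with 5.25 and 5.21 on the MEF arrays, 4.57, 4.93, 4.10 and 4.08 on the MEF-derived ieSC arrays, and 4.39, 4.14, 4.51 and 4.24 on the TTF-derived ieSC arrays. The ieSC values lay below both MEF values by small margins. The difference of -0.86 ± 0.27 passed (adjusted p = 0.0247), but not without MEF array a (-0.84, adjusted p = 0.059) or b (-0.88, adjusted p = 0.0511), nor with arrays of a name averaged (adjusted p = 0.0974) or a trend in the variance (adjusted p = 0.053). With dim levels raised it was -0.22.

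Each ieSC group was also set against the same 2 MEF arrays. In MEF-derived ieSCs, 21 members were lower and 13 higher, when 24.0% of all genes were lower and 27.2% higher. In TTF-derived ieSCs, 20 were lower and 12 higher, when 21.9% of all genes were lower and 23.3% higher. The differences of Sfrp2 were -11.51 ± 0.41 (MEF-derived) and -11.62 ± 0.41 (TTF-derived). Those of Dkk3 were -11.27 ± 0.34 and -11.18 ± 0.34, those of Rspo3 -11.19 ± 0.39 and -10.95 ± 0.39, and those of Wnt5a -7.68 ± 0.26 and -7.42 ± 0.26. The first 3 were at or near the dim end in both ieSC groups, so the size of each fall rests mainly on the MEF level, and both comparisons share the MEF arrays.

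By class, antagonists were lower in 6 of 9 in MEF-derived cells, with Sfrp5 (2.52 ± 0.21) and Wif1 (1.38 ± 0.41) higher, and lower in 7 of 9 in TTF-derived cells, with none higher. Wif1 passed in MEF-derived cells at an adjusted p of 0.0182, which was 0.0894 without MEF-derived name 1 (difference 1.15) and 0.152 with arrays of a name averaged. The fall of Wif1 in TTF-derived cells, -2.39 ± 0.41 (adjusted p = 0.00104), had an adjusted p of 0.0566 when averaged. Co-receptors were lower in 4 of 4 (MEF-derived) and 3 of 4 (TTF-derived), where Ror1 gave -0.12 ± 0.27 (adjusted p = 0.758). Lrp5 fell by 0.37 ± 0.10 in TTF-derived cells (adjusted p = 0.0132, and 0.107 when averaged).

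Frizzled genes were lower in 5 and higher in 2 of 10 in MEF-derived cells, and lower in 4 and higher in 3 in TTF-derived cells. The rises of Fzd10 and Fzd3 in MEF-derived cells (1.98 and 0.57) lost their calls with arrays of a name averaged (adjusted p = 0.0634 and 0.0988). On the feature used, Fzd7 fell in MEF-derived cells (-1.91 ± 0.18), as did Fzd5 (-1.12 ± 0.13). In TTF-derived cells the differences of Fzd5 and Fzd7, -0.17 ± 0.13 and -0.48 ± 0.18, did not pass (adjusted p = 0.321 and 0.0546). That p of Fzd7 was under 0.05 in 7 other settings, among them without TTF-derived name 2 (-0.69, adjusted p = 0.00377) and without TTF-derived array 2a (-0.52, adjusted p = 0.0442). The second feature of Fzd7 gave the opposite calls in the limma fit to every feature. It gave 0.03 ± 0.17 in MEF-derived cells (adjusted p = 0.903) and -0.60 ± 0.17 in TTF-derived cells (adjusted p = 0.018). Fzd2 fell in TTF-derived cells (-1.04 ± 0.18, adjusted p = 0.00112), and in MEF-derived cells it gave -0.16 ± 0.18 (adjusted p = 0.509). Fzd6 rose in TTF-derived cells (1.498 ± 0.25) and had 0.63 ± 0.25 in MEF-derived cells (adjusted p = 0.0618, and 0.0112, 0.0462 or 0.0386 without MEF-derived name 2, MEF-derived array 2b or TTF-derived name 2).

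Ligands were lower in 2 of 14 in each ieSC group, higher in 5 in MEF-derived and in 6 in TTF-derived cells. Wnt11 was called higher in MEF-derived cells, by 1.34 ± 0.48 (adjusted p = 0.0434). That call was lost in 11 of 23 settings other than a minimum difference, and without MEF-derived name 1 the value was 0.65 (adjusted p = 0.172), against 2.02 without name 2 (adjusted p = 0.00237). Wnt10b and Wnt7b were called higher in TTF-derived cells, by 0.62 ± 0.18 and 1.89 ± 0.42 (adjusted p = 0.0164 and 0.0051, the latter 0.0737 when averaged). In MEF-derived cells they gave 0.10 ± 0.18 and 0.90 ± 0.42 (adjusted p = 0.665 and 0.107). Without TTF-derived name 1, TTF-derived name 2 or MEF-derived name 2, the p of Wnt7b in MEF-derived cells was 0.0376, 0.0347 and 0.0472.

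Axin2 was higher in both groups, by 2.96 ± 0.31 in MEF-derived and 2.41 ± 0.31 in TTF-derived cells, and so was Tcf7, by 2.22 ± 0.28 and 3.15 ± 0.28. Lgr4 rose in MEF-derived cells (0.98 ± 0.17, adjusted p = 0.000921) and had 0.39 ± 0.17 in TTF-derived cells (adjusted p = 0.0868), where it passed without MEF-derived array 1a (0.039) or name 1 (0.0255). Lef1 passed narrowly in each group (-0.81 ± 0.29 and -0.91 ± 0.29, adjusted p = 0.0444 and 0.0314) and lost the call without either MEF array in both, with adjusted p from 0.0594 to 0.089.

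Between the ieSC groups, 14 of the 46 members were higher and 7 lower in TTF-derived cells, and 25 did not pass. Over all genes 16.8% were higher and 19.3% lower. The median difference was -0.08 over the members and -0.05 over all genes. Higher in TTF-derived cells were 3 ligands, 4 Frizzled receptors, 3 co-receptors, 1 of the R-spondin class, 2 antagonists and 1 nuclear factor, and lower were 2 ligands, 2 Frizzled receptors, 1 of the R-spondin class and 2 antagonists. With the arrays of each name averaged, so that each group has 2 values, 8 members were called higher and 3 lower. The TTF-derived cells differ from the MEF-derived ones in the fibroblasts they came from and in the names themselves, and these cannot be told apart. Some cell-type markers were called as well. Of 6 mesothelial markers 2 were higher in TTF-derived cells, and of 12 fibroblast markers 2 were higher and 1 lower. Of 7 smooth muscle markers 1 was higher and 2 lower, and of 10 macrophage markers 1 was lower. Sertoli markers were higher in 2 and lower in 3 of 13, granulosa markers higher in 2 of 5, keratinocyte markers higher in 2 of 6, endothelial markers higher in 1 of 4, and chondrocyte markers higher in 1 and lower in 1 of 6. The shares over all genes, 16.8% higher and 19.3% lower, apply to these short lists too, and the counts are a description. The part of these cell types in the differences was not tested.

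**Figure D3:**
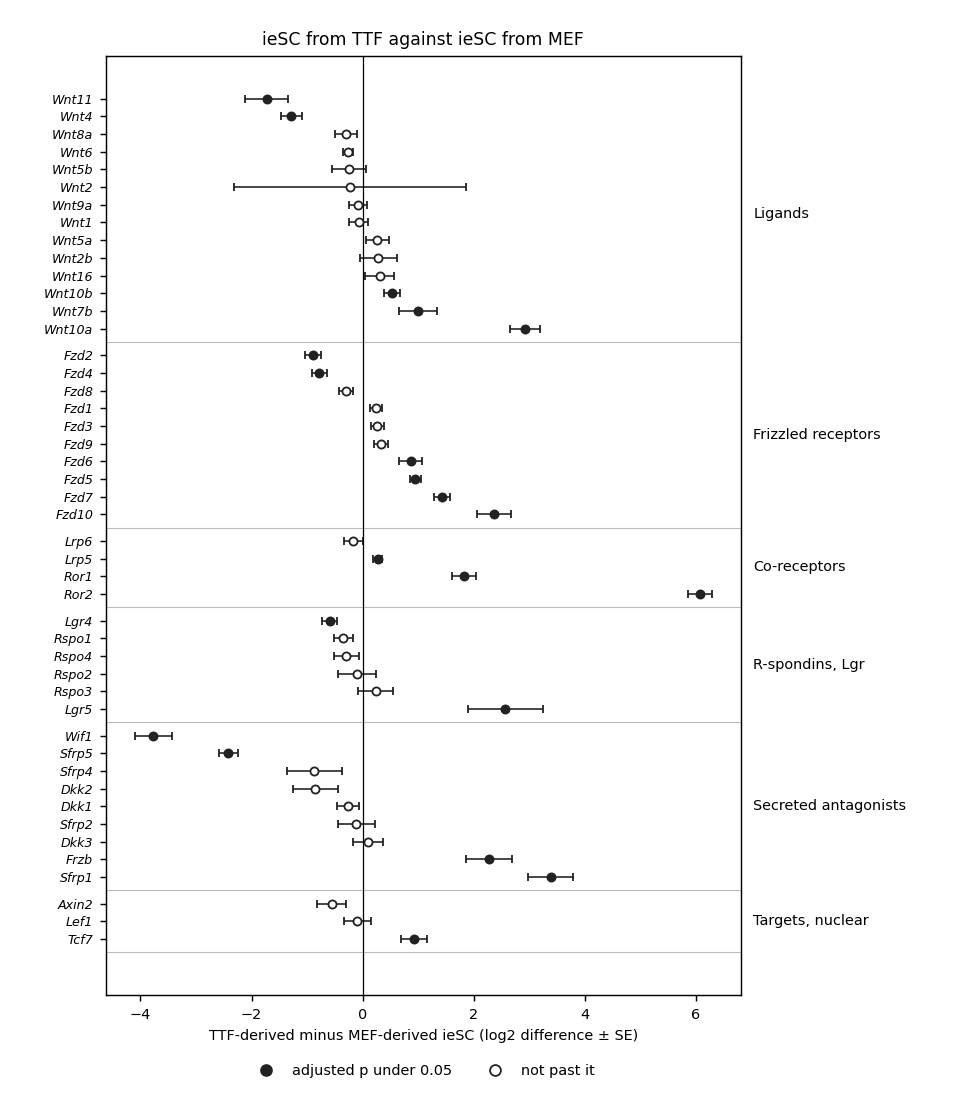
Log2 difference of TTF-derived from MEF-derived ieSCs (x axis, ± SE from the limma fit to all 10 arrays) for each tested member by class, filled where the adjusted p was under 0.05. Ror2 stands at 6.08 and Wif1 at -3.77, and 25 members are not past the threshold.

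Ror2 had the largest difference between the ieSC groups among the members, 6.08 ± 0.21 (adjusted p = 9.71e-08), with dim MEF-derived arrays at 3.41 to 4.08 and TTF-derived arrays at 9.70 to 10.13. With dim levels raised it was 4.86. Ror1 and Lrp5 were also higher in TTF-derived cells. Ror1 differed by 1.83 ± 0.22 (adjusted p = 0.000216), and its second feature gave 1.91 ± 0.17. Lrp5 differed by 0.27 ± 0.08 (adjusted p = 0.0282), a call that was lost in 7 settings, with adjusted p of 0.058, 0.06 and 0.0519 without TTF-derived array 2a, MEF-derived array 2a or MEF-derived array 1b, and of 0.0533 to 0.0793 without a name. Lrp6 did not pass (-0.17 ± 0.17, adjusted p = 0.494).

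Wif1, a secreted protein that binds Wnt ligands, was lower in TTF-derived cells. Its levels were 7.42 and 7.27 on the MEF arrays, 8.93, 8.99, 8.46 and 8.53 on the MEF-derived ieSC arrays, and 5.47, 5.69, 4.35 and 4.31 on the TTF-derived ieSC arrays. MEF-derived ieSCs lay above MEFs and TTF-derived ieSCs below them, with no overlap, and TTF-derived name 2 was at the dim end. The difference between the ieSC groups was -3.77 ± 0.33 (adjusted p = 3.19e-05). Sfrp5 was lower too, with 5.71 and 5.66 on the MEF arrays, 7.87, 8.09, 8.44 and 8.39 on the MEF-derived ieSC arrays, and 5.68, 5.93, 5.73 and 5.79 on the TTF-derived ieSC arrays. MEF and TTF-derived arrays shared the same low range, and all MEF-derived ieSC arrays were above it, a difference of -2.42 ± 0.17 (adjusted p = 7.87e-06).

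The other antagonists with a call were higher in TTF-derived cells. Sfrp1, whose array values are given above, was higher on every TTF-derived array than on any MEF-derived array and differed by 3.39 ± 0.40 (adjusted p = 0.000201). In both groups name 2 was above name 1 for Sfrp1, by 1.30 in MEF-derived and 1.00 in TTF-derived cells. Frzb stood at 8.51 and 8.43 on the MEF arrays, 3.05, 2.57, 3.97 and 3.76 on the MEF-derived ieSC arrays, and 5.79, 5.63, 5.14 and 5.91 on the TTF-derived ieSC arrays. MEF-derived arrays were all dim and TTF-derived arrays just above the dim end, and the difference of 2.28 ± 0.41 (adjusted p = 0.0021) fell to 0.61 with dim levels raised (adjusted p = 0.113). Sfrp2, Dkk1 and Dkk3 did not pass between the ieSC groups, with differences of -0.11 ± 0.34, -0.27 ± 0.20 and 0.10 ± 0.28, and all 3 were dim in both. Dkk2 gave -0.85 ± 0.40 (adjusted p = 0.135), and -1.10 and -1.05 without MEF-derived array 2a or name 2 (adjusted p = 0.00547 and 0.0111). Sfrp4 gave -0.87 ± 0.49 (adjusted p = 0.21), and -1.79 without TTF-derived name 1 (adjusted p = 0.00446).

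**Figure D4:**
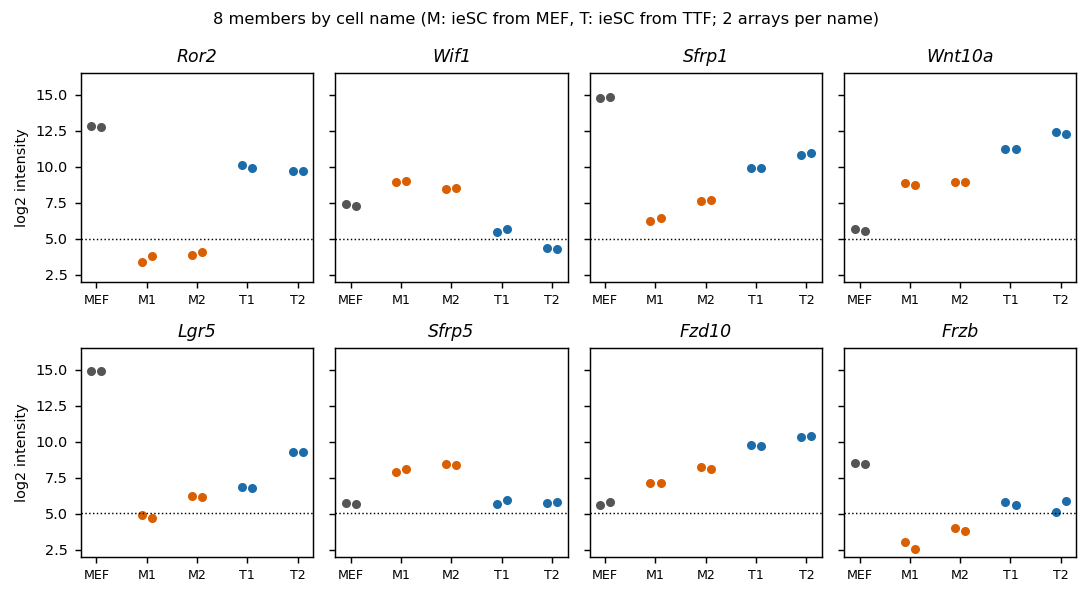
Level (log2 intensity) of the 8 members with the largest called difference between the ieSC groups, by name: MEF, MEF-derived names 1 and 2 (M1, M2) and TTF-derived names 1 and 2 (T1, T2), 2 arrays each, with the mean 40th percentile (5.01) as a dotted line. Names of a group lie close together for Ror2 and Sfrp5 and apart for Lgr5, where TTF-derived name 1 is at 6.79 and 6.88 and name 2 at 9.27 and 9.30.

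Of the ligands, Wnt10a, Wnt7b and Wnt10b were higher and Wnt4 and Wnt11 lower in TTF-derived cells. Wnt10a differed by 2.93 ± 0.27 (adjusted p = 4.2e-05), and Wnt4 by -1.28 ± 0.19 (adjusted p = 0.00067, and 0.0506 with arrays of a name averaged). Wnt11 stood at 8.87 and 8.86 on the MEF arrays, 10.90, 10.88, 9.45 and 9.59 on the MEF-derived ieSC arrays, and 8.92, 8.90, 7.93 and 8.15 on the TTF-derived ieSC arrays. In both ieSC groups name 1 was above name 2 (name 2 minus name 1 was -1.37 and -0.87). The difference was -1.73 ± 0.40 (adjusted p = 0.00782), -1.04 without MEF-derived name 1 (adjusted p = 0.0404), -1.29 without TTF-derived name 2 (adjusted p = 0.0647), and past no threshold when averaged (adjusted p = 0.134).

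Wnt7b passed narrowly, with 0.99 ± 0.35 (adjusted p = 0.0498). The call was lost in 14 of the other settings, with 0.50 and 0.66 without TTF-derived name 1 or MEF-derived name 2 (adjusted p = 0.237 and 0.214). Wnt10b differed by 0.52 ± 0.14 (adjusted p = 0.0187), and the p was 0.0515 without MEF-derived name 1 and 0.0522 when averaged. Wnt5a, Wnt5b and Wnt9a passed only without TTF-derived name 2 (0.57, -0.77 and -0.39, against 0.27, -0.25 and -0.08 with it).

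Of the Frizzled receptors, Fzd10, Fzd5, Fzd6 and, on the feature used, Fzd7 were higher and Fzd2 and Fzd4 lower in TTF-derived cells. Fzd10 differed by 2.37 ± 0.31 (adjusted p = 0.000339). Fzd5 differed by 0.95 ± 0.10 (adjusted p = 0.000115), and its second feature by 0.65 ± 0.13. Fzd6 and Fzd4 gave 0.87 ± 0.20 and -0.78 ± 0.14 (adjusted p = 0.00917 and 0.00177), both lost when arrays of a name were averaged (adjusted p = 0.0718 and 0.0676). Fzd2 differed by -0.89 ± 0.15 (adjusted p = 0.00138). Fzd1, Fzd3, Fzd8 and Fzd9 did not pass (0.24, 0.27, -0.30 and 0.33), though each passed with the name ignored (adjusted p from 0.00951 to 0.045) and with the name number as a block (0.0154 to 0.0342).

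The 2 features of Fzd7 went opposite ways between the ieSC groups. The feature used stood at 11.86 and 11.83 on the MEF arrays, 9.83, 9.89, 10.01 and 9.999 on the MEF-derived ieSC arrays, and 11.23, 11.07, 11.64 and 11.53 on the TTF-derived ieSC arrays, lowest on the MEF-derived arrays. The second feature stood at 7.68 and 7.60 on the MEF arrays, 7.70, 7.52, 7.67 and 7.78 on the MEF-derived ieSC arrays, and 7.11, 6.84, 7.20 and 6.996 on the TTF-derived ieSC arrays, where the TTF-derived arrays were lowest. The differences were 1.43 ± 0.14 and -0.63 ± 0.14, both past the threshold in the fit to every feature (adjusted p = 5.94e-05 and 0.00646, with 16.8% of 42617 features higher and 17.0% lower), and the mean of the 2 features gave 0.40 (adjusted p = 0.0515). The count of 14 members higher in TTF-derived cells includes Fzd7 by its first feature.

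**Figure D5:**
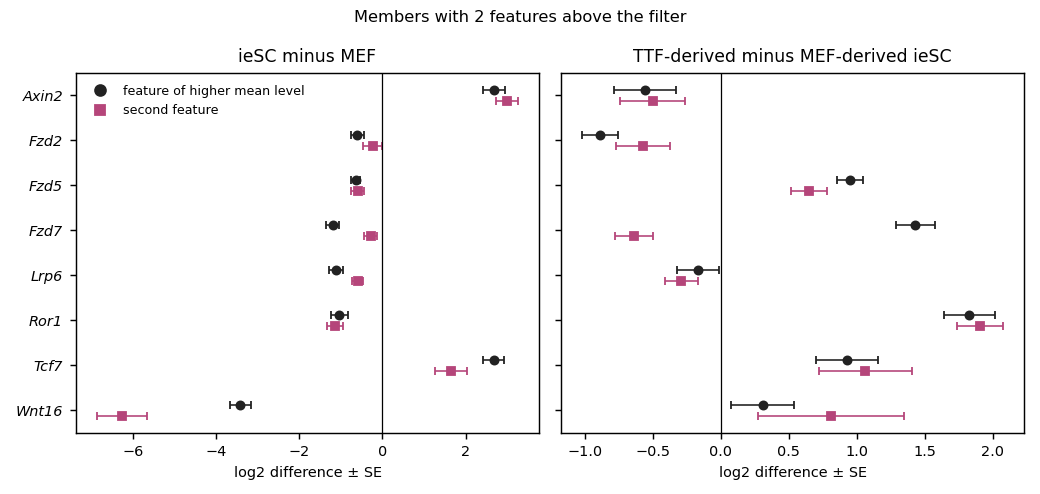
Log2 differences (x axis, ± SE from the fit to every feature) of the 8 members with 2 features above the filter, for ieSC against MEF (left) and TTF-derived against MEF-derived ieSC (right), with circles for the feature of higher mean level and squares for the second. The features lie on the same side of 0 for all 8 on the left and for all but Fzd7 (1.43 and -0.63) on the right.

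In the R-spondin class, Lgr5 was higher and Lgr4 lower in TTF-derived cells. The difference of Lgr5 was 2.57 ± 0.67 (adjusted p = 0.0143), with 1.88 without MEF-derived name 1 (adjusted p = 0.12), 1.35 without TTF-derived name 2 (adjusted p = 0.0632) and an adjusted p of 0.17 when averaged. Lgr4 differed by -0.59 ± 0.14 (adjusted p = 0.00829, and 0.0538 when averaged). Rspo1, Rspo2, Rspo3 and Rspo4 did not pass between the ieSC groups, though Rspo3 gave 0.80 without TTF-derived name 2 (adjusted p = 0.0161) at dim levels, and Rspo1 gave -0.34 with an adjusted p of 0.044 with the name ignored and 0.0136 with the name number as a block.

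Tcf7 was higher in TTF-derived cells by 0.93 ± 0.23 (adjusted p = 0.0117). The value was 0.54 without MEF-derived name 1 (adjusted p = 0.0632) and 0.70 without TTF-derived name 2 (adjusted p = 0.0899), and the adjusted p was 0.151 when averaged. Axin2 was at -0.56 ± 0.26 and did not pass (adjusted p = 0.123), but passed without TTF-derived array 2a (-0.68, adjusted p = 0.0382) or name 2 (-0.79, adjusted p = 0.0273). Lef1 gave -0.10 ± 0.24 (adjusted p = 0.805).

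Arrays of a name were close for most members, with a median gap of 0.102 over the 46, and gaps over 1 only for Wnt2 (MEF arrays) and Dkk2 (MEF-derived name 2). Names of a group were further apart, with a median absolute difference of 0.3525 between MEF-derived names and 0.287 between TTF-derived names, and 5 and 6 members more than 1 apart.

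Of 72 further genes of the pathway, 66 were tested, and 18 were higher and 21 lower in ieSCs than in MEFs (27.3% and 31.8%, when 25.9% and 23.6% of all genes were). Cthrc1 and Tspan12, among the 21, were below the filter level on every ieSC array (at most 3.77 and 4.383) and passed through the MEF arrays alone. Sp5, among the 18, was below it on the MEF arrays (at most 4.089) and passed through ieSC arrays alone. Such genes had to lie higher in the group they passed through. The counts and medians of these genes and their lists against MEFs are therefore a description. Among ligand processing and release genes, 2 of 4 were higher: Porcn, the acyltransferase that lipidates Wnt ligands (0.86 ± 0.26, adjusted p = 0.0218), and Wls, which carries them to the surface (0.43 ± 0.11, adjusted p = 0.00853). Against MEFs, Porcn rose in MEF-derived cells (1.95 ± 0.29, adjusted p = 0.000373) and did not pass in TTF-derived cells (-0.225 ± 0.29, adjusted p = 0.577). Porcn was higher in MEF-derived than in TTF-derived cells (-2.17 ± 0.23 for TTF-derived against MEF-derived, adjusted p = 0.000109). Trabd2b, a protease that inactivates Wnt ligands, was higher in TTF-derived cells (2.81 ± 0.39, adjusted p = 0.000499).

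Further receptors and their turnover genes were higher in 3 and lower in 5 of 10. Rnf43, the ligase that removes Frizzled from the surface, rose by 4.28 ± 0.23 (adjusted p = 4.87e-07), from 7.25 in MEFs to 11.15 and 11.91. The glypican Gpc3 was lower (-7.34 ± 0.36), as were Tspan12, a partner of Fzd4 (-5.75 ± 0.41), and Kremen1, a Dkk receptor (-0.79 ± 0.12). Lrp4 was lower in TTF-derived than in MEF-derived cells (-2.36 ± 0.16), and so was Znrf3, the relative of Rnf43 (-0.60 ± 0.15, adjusted p = 0.0105). Of 5 further secreted modulators, Cthrc1 and Igfbp4 were lower (-7.94 ± 0.27 and -6.17 ± 0.40) and Apcdd1, a membrane-bound inhibitor, rose by 2.18 ± 0.21.

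Inside the cell, the Dishevelled, destruction complex and beta-catenin genes were higher in 3 and lower in 1 of 14 and had a median of -0.11, with Csnk1e, a casein kinase, the only one at least 2-fold (1.04 ± 0.17). Ctnnb1, which encodes beta-catenin, gave -0.36 ± 0.16 (adjusted p = 0.0804). Of 12 nuclear partners 6 were lower and 1 higher. Tle2 fell by 3.02 ± 0.32, Tle4 rose by 2.36 ± 0.15, both Groucho-type corepressors, and Tcf7l1 fell by 1.19 ± 0.22. Of 10 planar polarity genes 2 were higher and 4 lower, with Celsr1 at 2.33 ± 0.14, Daam1 at 1.57 ± 0.16 and Daam2 at -1.93 ± 0.15.

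Genes induced by beta-catenin in many tissues were higher in 6 and lower in 3 of 11, with a median of 0.465. Tnfrsf19 rose by 2.20 ± 0.14 (adjusted p = 1.28e-06), while the feedback inhibitors Nkd1 and Nkd2 and the transcription factor Ascl2 were lower (-2.51 ± 0.34, -1.10 ± 0.17 and -1.46 ± 0.23). Between the ieSC groups, 13 of the 66 further genes were higher and 12 lower in TTF-derived cells (19.7% and 18.2%), close to the 16.8% and 19.3% of all genes. Celsr1 was higher by 2.23 ± 0.13 and Tle2 by 1.67 ± 0.28 in TTF-derived cells, and Ccn4 and Tnfrsf19 were lower (-1.19 ± 0.15 and -0.78 ± 0.12).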

How the data were processed

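The deposited table holds log2 intensity of 62976 Agilent features on 10 arrays. Per the submitters' processing notes limma was used, and no version is given. The columns look quantile-normalized from their values. The background method was not given in these sources. Columns forced to one distribution cannot show a change in total mRNA per cell.

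Features were named from the platform annotation (31465 with 1 symbol, 31511 with none), and symbols were updated through RefSeq GRCm38.p6 names (29050 matched, 3282 newer). Features that exceeded their array's 40th percentile on 2 or more arrays were kept (42617). A gene was represented by its kept feature of highest mean level. Group means were fitted to the log2 values of all 10 arrays with limma 3.58.1 (R 4.3.3, statmod 1.5.0), with the cell name as a random block (duplicateCorrelation; consensus 0.606; 7 residual and 2.21 prior degrees of freedom). The moderated test was two-sided, with Benjamini-Hochberg adjustment over 16650 genes at 0.05. The number of arrays limits the precision, with a median SE over genes of 0.174 in the comparison of ieSCs with MEFs and 0.156 in that of TTF-ieSC with MEF-ieSC. The script was tested on simulated data.

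The members, lists and tests were chosen with earlier results of these data known. Array values were given for up to 4 members per class with the largest called difference between ieSC and MEF and the 8 with the largest between the ieSC groups, and for others chosen after their values were seen (Wnt2, Wnt11, Sfrp4, Fzd7, Dkk1). Further pathway genes were named by smallest p, up to 4 per list in the comparison with MEFs and 2 in that of the ieSC groups, with Ctnnb1 added. Alternatives covered the filter, the feature of a gene, the shared name, centring, the variance model, a minimum difference, dim levels raised to 5.01 (added after seeing the data), the 8 ieSC arrays alone (likewise added), and each array or name left out.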

Additional observations from a re-analysis of the deposited data

Results flagged for a closer look

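Fzd9 had 1 array apart from the other 3 of its group: MEF-derived array 2a stood at 6.44, and the other MEF-derived arrays at 6.70 to 6.71. The threshold used here is passed by chance in about 1 of 20 groups of 4 independent values, and these arrays are 2 of each of 2 names. The fall of Fzd9 against MEFs kept its call in every setting run.

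Wif1 lay above MEFs on all 4 MEF-derived ieSC arrays and below MEFs on all 4 TTF-derived ieSC arrays. The difference between the 2 ieSC groups, -3.77 ± 0.33 in the limma fit (adjusted p = 3.19e-05), compares them directly, since both groups share the MEF arrays. A call in this difference was part of the rule that flagged Wif1, so it adds no separate support.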

How the results depend on the processing

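Of 184 member results (46 members in 4 comparisons), 0 changed sign with a call in either the main fit or the other setting. In every setting that gave them a value (23 or 24 per member against MEFs, 25 or 26 between the ieSC groups), 103 kept their side of the threshold. Where every kept feature was tested, a gene was counted by its feature of smallest p. The count of sign changes therefore leaves out the second feature of Fzd7, called in the opposite direction between the ieSC groups (-0.63). A test against a minimum log2 difference of 1 left 7 members higher and 14 lower in ieSC against MEF, 7 higher and 16 lower in each ieSC group against MEF, and 5 higher and 2 lower in TTF-derived against MEF-derived ieSC. In the other settings, 97 of the 122 called results were never lost, 9 of 21 in the comparison of the ieSC groups and 31 of 35 for ieSC against MEF. Between the ieSC groups, 8 members were higher and 3 lower with the arrays of a name averaged, and 17 higher and 13 lower with the name ignored. Leaving out 1 array or 1 name gave 13 to 15 members higher and 22 to 23 lower in ieSC against MEF, 12 to 16 and 20 to 21 in MEF-derived ieSC against MEF, 12 to 13 and 19 to 22 in TTF-derived ieSC against MEF, and 10 to 15 and 7 to 9 between the ieSC groups.

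The ieSC names share the numbers 1 and 2 across origins, but only a number. With the name number as a replicate block, over the 8 ieSC arrays, 17 members were higher and 12 lower in TTF-derived cells. Across 16650 genes the difference of name 2 from name 1 correlated between the origins at r = 0.297. The filter at the 60th percentile tested fewer members, and the paired fit could be made only between the ieSC groups. The table has no detection flags, and with dim levels raised Wnt7b (ieSC against MEF) and Frzb (between the ieSC groups) lost their calls.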
